A study of Zea mays with 3 samples.

Results

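The CENH3 landscape of the maize line F3-600 was set against that of the inbred line B73, with the centromeric domains of each line called from its own reads. F3-600 and B73 are 2 of the 3 libraries of the series, and F3-152, the remaining line, was read over the same places only for reference. The midpoint of each read on chromosomes 1 to 10 was assigned to one of 210639 bins of 10 kb, each library was divided by the median of its non-empty bins, and bins at 10 times this median or more were called enriched. Enriched bins that lay no more than 500 kb from each other formed a domain, and a domain with at least 10 enriched bins, which is 100 kb, was called broad. F3-600 had 43 domains by this rule, of which 7 were broad, and B73 had 39, of which 7 were broad.

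CENH3 is the variant of histone H3 that replaces the canonical histone in the nucleosomes of active centromeres, where the kinetochore is assembled. Maize centromeres are rich in the tandem repeat CentC and in centromeric retrotransposons (CRM), but the sequence alone does not fix the place of CENH3. Centromeres can form at sites without the usual repeats, as de novo centromeres or neocentromeres, and a centromere can also lose CENH3 while its DNA remains.

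The libraries are chromatin immunoprecipitation with a rabbit antiserum against maize CENH3 peptides, on nuclei of young leaves digested with micrococcal nuclease, followed by paired-end Illumina sequencing. B73 is labelled as the control, F3-152 and F3-600 are labelled by their names alone, and the title of the series speaks of irradiated material. The labels give no pedigree, dose or generation for either F3 line. Each line has 1 library, each library came from another instrument, and no input library was used here, so line, run and copy number of the underlying DNA cannot be told apart.

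B73 held 7709773 reads on chromosomes 1 to 10 and F3-600 held 14444810, with medians of 32 and 64 reads per bin. The median fragment was 193 bp long in B73 and 306 bp in F3-600, and 79.8% and 96.4% of the reads had a distinct start, end and strand. There was no replicate and no test between the lines. Intervals are exact 95% intervals over fragments and cover counting error only. In F3-600, 491 bins were enriched, 0.233% of all bins, and in B73 734 bins, 0.348%.

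The broad domains of F3-600 lay on 6 chromosomes, namely 3 (a pair), 4, 5, 6, 9 and 10, whereas those of B73 lay on 7, namely 2, 3, 4, 5, 8, 9 and 10. Domains on chromosomes 3, 4, 5 and 10 overlapped between the lines, those on chromosome 6 and in the first part of chromosome 3 had no B73 counterpart, and those of B73 on chromosomes 2, 8 and 9 had none in F3-600. The enriched length of the broad domains was 4.04 Mb in F3-600 and 6.67 Mb in B73. The broad domains held 3.90% of the F3-600 fragments (3.89% to 3.92%) and 6.84% of the B73 fragments (6.81% to 6.86%). F3-600 therefore had the shorter enriched length and the smaller share of fragments although its library was the deeper one.

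**Figure D1:**
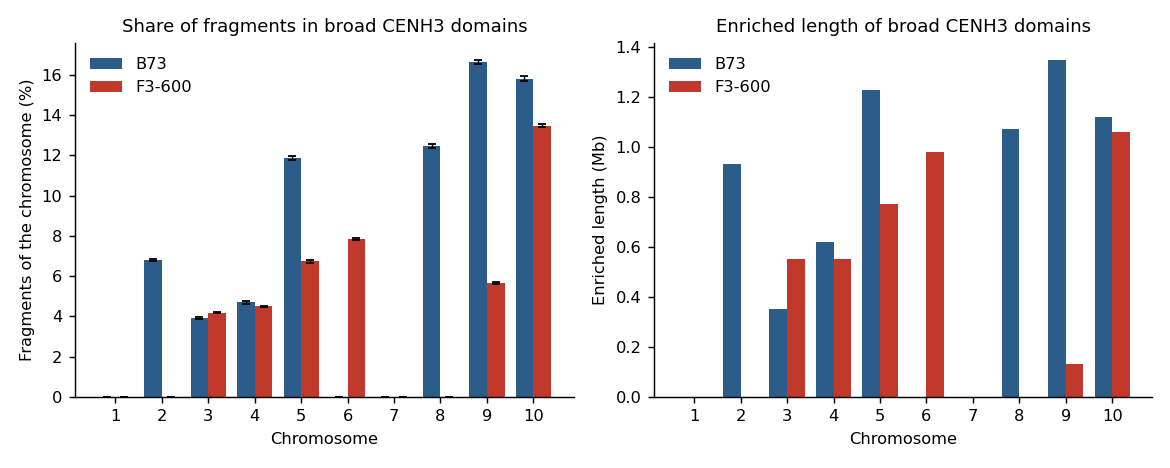
Share of each chromosome's fragments (%, left, with exact 95% binomial intervals for counting error) and enriched length (Mb, right) in broad CENH3 domains of B73 and F3-600, 1 library each. Chromosome 6 has a bar only in F3-600, chromosomes 2 and 8 only in B73, and on chromosome 9 the enriched length is 1.35 Mb in B73 and 0.13 Mb in F3-600.

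Of the 404 enriched bins in the broad F3-600 domains, 232 (57.4%) were also enriched in B73, and 109 were below 2 times the median in B73. Over the whole genome, 0.0574% of the bins were enriched in F3-600 and below 2 times in B73. In the reverse view, 229 (34.3%) of the 667 enriched bins in the broad B73 domains were enriched in F3-600, and 327 (49.0%) were below 2 times in F3-600, against 0.157% of all bins with that combination. These counts describe how the rule sorted the bins, since the bins were chosen for a high value in 1 of the 2 libraries. Of the 232 bins enriched in both, 185 (79.7%) had the lower scaled level in F3-600. This pooled share hides a split by chromosome. It was 91 of 103 bins on chromosome 10, 57 of 63 on chromosome 5 and 24 of 28 on chromosome 3. On chromosome 4 it was 11 of 35, so most bins there went the other way. Bins of 1 library are not replicates, and the share is a description.

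**Figure D2:**
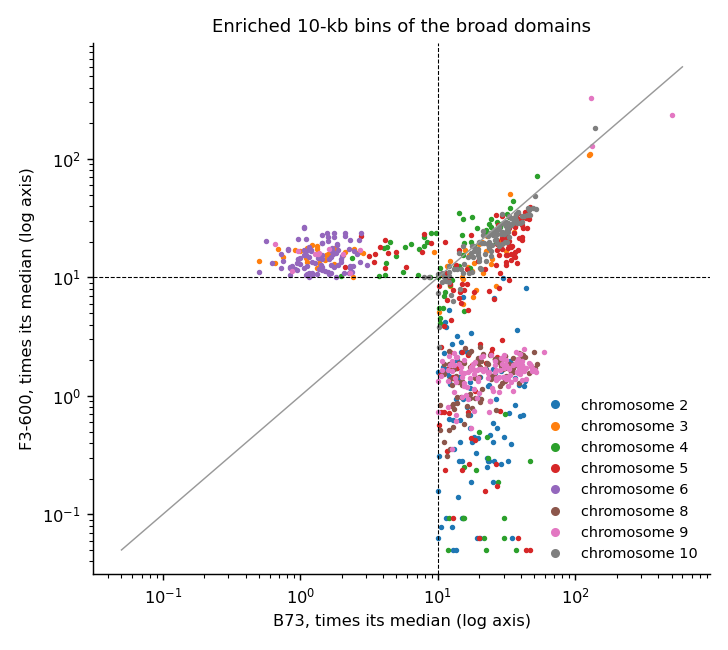
Scaled level in F3-600 (vertical, log axis) against B73 (horizontal, log axis) for the 842 bins of 10 kb enriched in a broad domain of either library, coloured by chromosome; dashed lines mark 10 times the median, the solid line equal levels, and bins below 0.05 are drawn at 0.05. The bins of chromosome 10 lie close to the line of equal levels, those of chromosome 6 lie high in F3-600 alone, and the B73-enriched bins of chromosome 8 lie between 0.313 and 2.61 times the F3-600 median.

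The longest F3-600 domain without a B73 counterpart lay on chromosome 6, from 48960001 to 50490000 of B73 RefGen_v4, a span of 1.53 Mb with 98 enriched bins. The median of these bins was 14.4 times in F3-600 (quartiles 12.0 and 17.1, highest 26.7), 1.42 times in B73 (1.07 and 1.80) and 2.11 times in F3-152. None of the 98 bins was enriched in B73 or in F3-152. Summed over these bins, F3-600 held 48294 fragments and B73 2772, a ratio of scaled levels of 9.50 (9.15 to 9.88).

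The chromosome 6 domain was continuous, with 139 of the 153 bins of its span at 5 times or more and no bin of its span nearly empty in either library, where nearly empty means at or below 0.25 times the median. Its edges were gradual. The 100 kb before the domain had a median of 7.0 times and the 100 kb after it 6.1 times in F3-600, and B73 was at 1.63 and 1.44 times there. The 1 Mb on either side was at 1.97 and 1.93 times in F3-600 and at 1.20 and 1.34 times in B73. F3-600 was thus the higher library in these flanks as well, by far less than in the domain. This was not particular to chromosome 6. The 1-Mb flanks of the other broad F3-600 domains were also higher in F3-600, except on the right of chromosome 5 (0.734 times against 3.72 times in B73). Those of the first chromosome 3 domain were at 1.49 and 1.75 times in F3-600 and at 1.13 and 1.20 times in B73. The highest bin of the chromosome 6 domain, from 49410001 to 49420000, reached 26.7 times in F3-600 and 1.06 times in B73. The rule found no broad domain of B73 on this chromosome, and the B73 site with the most reads was a single bin from 12820001 to 12830000 at 242 times. In F3-600 the domain took up 7.85% of the chromosome's fragments (7.78% to 7.91%).

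The other F3-600 domain that no broad B73 domain overlapped and that held no enriched B73 bin lay on chromosome 3 from 79910001 to 80180000, 5.7 Mb before the broad B73 domain of that chromosome. Its 26 enriched bins had a median of 15.6 times (13.95 and 17.4, highest 18.7) in F3-600, 1.31 times in B73 and 2.28 times in F3-152. The fragments numbered 13004 in F3-600 and 678 in B73, a ratio of 10.5 (9.68 to 11.3). Thus the 0.27-Mb domain was short, even and about as high as the long domain of chromosome 6.

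Its left edge was abrupt, in contrast to chromosome 6. The last bin before it was at 1.86 times and its first bin at 10.1 times. The last bin was at 13.2 times and the one after it at 9.25 times, and the 100 kb on the 2 sides had medians of 1.08 and 1.52 times. All 27 bins of the span were at 5 times or more in F3-600, and none in B73 or F3-152. At this place the 3 libraries thus split into F3-600 on the one hand and B73 and F3-152, at 1.31 and 2.28 times, on the other. The chromosome carried a second F3-600 domain at the B73 place, described below with the shared ones.

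The third F3-600 domain apart from a broad B73 domain lay on chromosome 9, from 57390001 to 57540000, 2.0 Mb after the B73 domain of that chromosome. It was the shortest, with 13 enriched bins in 0.15 Mb, and its bins fell into 2 classes. In 3 bins (57390001 to 57410000 and 57430001 to 57440000) the reads piled up in every library, at 236, 128 and 328 times in F3-600 and 501, 132 and 130 times in B73. These 3 bins held 82.8% of the domain's fragments. The other 10 bins ranged from 10.8 to 19.1 times in F3-600 (median 15.9) and from 0.656 to 2.72 times in B73 (median 1.36). These bins were sorted by being enriched in F3-600 and not in B73, so the gap between the ranges follows from the choice.

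The ratio of F3-600 to B73 was 8.84 (7.88 to 9.94) in these 10 bins and 0.836 in the 3 pile-up bins, a split by the B73 level itself that was made after the values were seen and is a description only. Over all 13 bins together it was 0.99 (0.971 to 1.01), so that the summed value was set by the pile-ups. F3-152 was also raised at this place, with a median of 10.8 times in the 10 bins (5.49 to 14.9), of which 7 were enriched. Only 50.9% of the domain's reads were distinct and 62.0% had a mapping quality of at least 30, the lowest values among the 7 domains. The part of repeated reads in the height of the single pile-up bins was not tested.

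**Figure D3:**
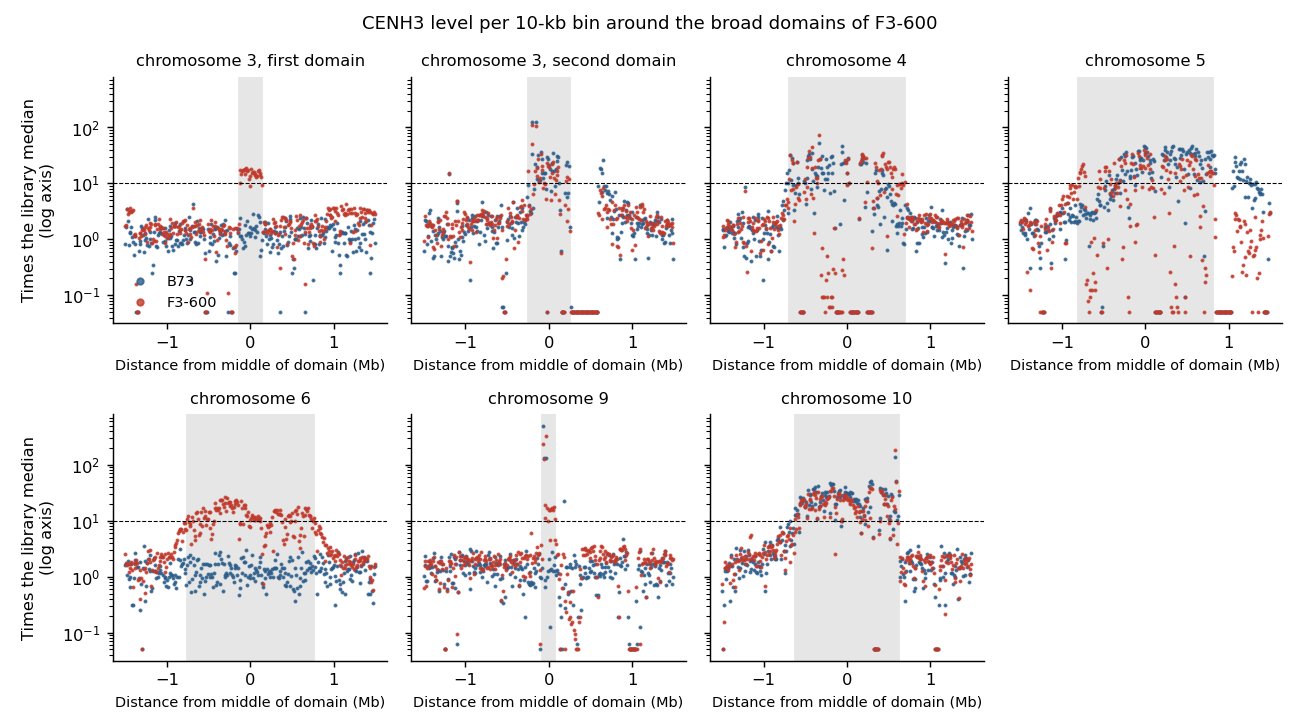
Scaled level per bin of 10 kb (times the library median, log axis) in B73 and F3-600 against the distance from the middle of each of the 7 broad F3-600 domains (Mb); the grey band is the F3-600 span, the dashed line is 10 times the median, and bins below 0.05 are drawn at 0.05. F3-600 rises above a flat B73 level in the first domain of chromosome 3 and on chromosome 6, and the lines run together on chromosome 10.

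Chromosome 10 had the most similar domain in both lines. The F3-600 domain ran from 51530001 to 52780000 and lay wholly within the B73 domain, which began 0.06 Mb earlier and ended at the same bin. Its 106 enriched bins had a median of 22.9 times in F3-600, 26.5 times in B73 and 21.8 times in F3-152, and 103 of the 106 were enriched in B73. The ratio was 0.828 (0.819 to 0.837). Its highest bin, from 52730001 to 52740000, was the same in the 2 libraries, at 181 times in F3-600 and 140 times in B73. With 13.5% of the chromosome's fragments (13.4% to 13.6%), against 15.8% in B73, it was the F3-600 domain with the largest share.

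On chromosome 5 the F3-600 domain ran from 104410001 to 106040000 and was displaced to the left of the B73 domain (104750001 to 106560000), with 1.29 Mb in common, 79.1% of the F3-600 span and 71.3% of the B73 span. In the 63 bins enriched in both, the ratio was 0.646 (0.637 to 0.655). It was 0.734 (0.724 to 0.743) over the 77 bins enriched in F3-600 and 0.478 (0.472 to 0.484) over the 123 enriched in B73. Of the 129 bins in common, 21 were nearly empty in F3-600 and 8 in B73. Among all bins 21.4% and 7.60% were nearly empty, so these counts do not set the domain apart. In the 0.34 Mb on the left that belonged to F3-600 alone, 12 of 34 bins were enriched in F3-600, 12 in F3-152 and 0 in B73. The medians of that stretch were close, at 3.58 times in F3-600, 4.01 times in F3-152 and 3.02 times in B73. Another 12 of its bins were nearly empty in F3-600, against 2 in B73. In the 0.52 Mb on the right that belonged to B73 alone, 23 of 52 bins were enriched in B73, 13 in F3-152 and 0 in F3-600. The median of the right stretch was 0.516 times in F3-600, 3.93 times in F3-152 and 9.27 times in B73. Each stretch lay outside the called span of the other line. The 0 in B73 on the left and in F3-600 on the right therefore follow from the rule, and only the F3-152 counts were not chosen in this way. The share of the chromosome's fragments was 6.73% (6.67% to 6.78%) in F3-600 and 11.9% in B73. The highest bin, from 105200001 to 105210000, was again the same one, at 39.6 times in F3-600 and 46.8 times in B73.

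On chromosome 4 the shift ran the other way. The F3-600 domain from 109090001 to 110490000 held 55 enriched bins and shared 1.14 Mb with the B73 domain (109050001 to 110230000), 81.4% and 96.6% of the spans. In the 26 bins beyond the right end of the B73 domain, 14 were enriched in F3-600, 19 in F3-152 and 0 in B73, with medians of 10.4, 12.0 and 2.91 times. The 0 in B73 follows from the rule, since these bins lay outside the B73 span. In the 35 bins enriched in both lines the median was 26.4 times in F3-600 and 23.4 times in B73, a ratio of 1.11 (1.09 to 1.14). The direction depended on the bins used. Over the 55 bins enriched in F3-600 the ratio was 1.31 (1.29 to 1.34), over the 62 bins enriched in B73 it was 0.723 (0.711 to 0.735), and over all 114 bins in common the medians were 4.45 times in F3-600 and 10.3 times in B73. The domain's share of the chromosome was 4.49% in F3-600 and 4.69% in B73. The highest bin of both libraries lay from 109450001 to 109460000, at 72.4 times in F3-600 and 52.8 times in B73.

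Inside the shared part of chromosome 4, many bins with B73 signal were nearly without reads in F3-600. The 500 kb with the highest B73 median on this chromosome, from 109310001 to 109810000, was at 15.5 times in B73 and 0.375 times in F3-600, against 8.19 times in F3-152. The window was mixed in F3-600, with 23 of its 50 bins nearly empty and 17 enriched, the highest bin of the domain among them, whereas in B73 5 were nearly empty and 35 enriched. Of the 114 shared bins, 45 were nearly empty in F3-600 and 27 in B73. Nearly empty bins made up 21.4% of all bins in F3-600 and 7.60% in B73, so an absence of CENH3 cannot be told apart there from sequence to which F3-600 reads did not map.

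The second F3-600 domain of chromosome 3, from 85840001 to 86340000, coincided with the left part of the B73 domain (85880001 to 86750000). The overlap was 92.0% of the F3-600 span and 52.9% of the B73 span, with 28 of its 29 enriched bins enriched in B73. The medians were 16.8 times in F3-600, 22.5 times in B73 and 10.4 times in F3-152, with a ratio of 0.803 (0.788 to 0.819). To the right, in the 0.41 Mb called in B73 alone, 33 of 41 bins were nearly empty in both libraries and 4 were enriched in B73, so the difference in span rested on few bins. The highest bin, from 85890001 to 85900000, was common to both lines, at 110 times in F3-600 and 127 times in B73.

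Broad B73 domains on chromosomes 2, 8 and 9 held 93, 107 and 135 enriched bins, and 0 of these were enriched in F3-600. The domain of chromosome 9, from 53770001 to 55390000, had a median of 26.2 times and 16.6% of the chromosome's fragments, the largest share in B73. In F3-600 the same bins had a median of 1.64 times and a maximum of 2.5 times, and no bin among them was nearly empty. The B73 level was 17.2-fold higher (16.8 to 17.6). In F3-152, by contrast, 102 of the 135 bins were enriched, with a median of 15.1 times.

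The domain of chromosome 8, from 50340001 to 52010000, was at 23.1 times in B73, 1.70 times in F3-600 (highest 2.61) and 1.98 times in F3-152. B73 was 16.2-fold higher than F3-600 (15.8 to 16.7), and again no enriched bin was nearly empty in F3-600. The 1 Mb on the 2 sides was at 1.83 and 1.44 times in F3-600, so the bins of the B73 domain were read in F3-600 at about the level of the sequence around it. For chromosome 9 the same flanks were at 0.328 times on the left and 1.71 times on the right.

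The domain of chromosome 2 ran from 95580001 to 97490000. Its enriched bins had a median of 17.2 times in B73, 0.938 times in F3-600 (highest 9.89) and 0.989 times in F3-152 (highest 9.08). Of the 191 bins of its span, 5 were at 5 times or more in F3-600, against 0 in the spans of chromosomes 8 and 9. B73 was 14.2-fold higher than F3-600 (13.8 to 14.7). Here 15 of the 93 enriched bins were nearly empty in F3-600, and over the whole span nearly empty bins made up 47.1% in F3-600, 44.5% in F3-152 and 27.7% in B73. Among all bins, 21.4% were nearly empty in F3-600, a share that the 15 of 93 did not exceed. Over the span of chromosome 8 nearly empty bins made up 23.4% in F3-600 and 20.4% in B73, and over that of chromosome 9 1.23% and 0.617%. Of these 3 spans, that of chromosome 2 thus had the largest share of nearly empty bins in F3-600 and in B73.

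**Figure D4:**
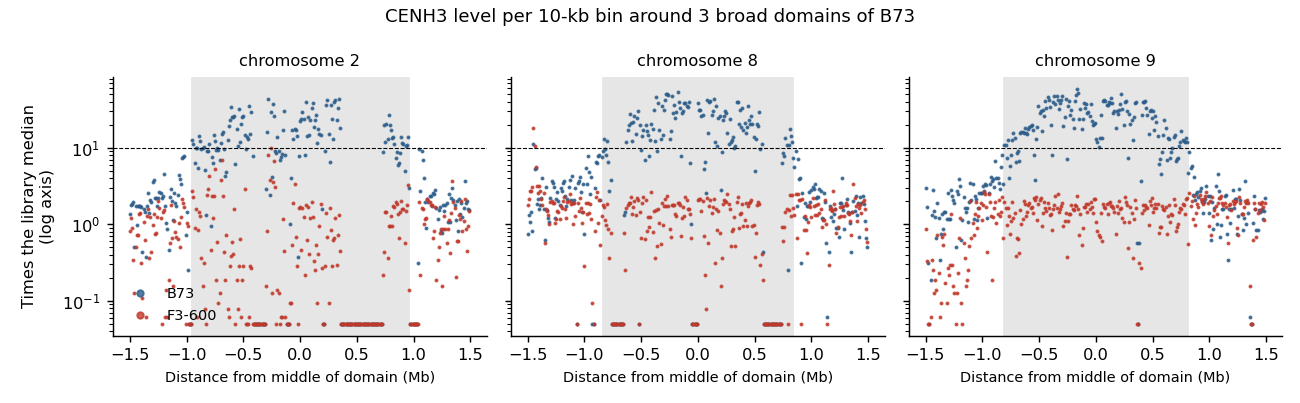
Scaled level per bin of 10 kb (times the library median, log axis) in B73 and F3-600 against the distance from the middle of the broad B73 domains of chromosomes 2, 8 and 9 (Mb); the grey band is the B73 span, the dashed line is 10 times the median, and bins below 0.05 are drawn at 0.05. F3-600 stays below 10 times throughout the 3 bands, with many bins at the bottom of the axis on chromosome 2 and an even level on chromosome 9.

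On chromosomes 1, 2, 7 and 8 no broad F3-600 domain was found, and the site with the most reads was a narrow one. The highest median of any 500-kb window in F3-600 was 2.23 times on chromosome 1, 1.77 times on chromosome 2, 1.98 times on chromosome 7 and 2.14 times on chromosome 8, against 24.5 times on chromosome 10. With the rule as used, these 4 chromosomes thus had no candidate for the active centromere of F3-600. Chromosomes 1, 6 and 7 had none for B73. Whether each broad domain, such as the short one of chromosome 9, is an active centromere was not tested. With bins of 50 kb B73 was broad at that chromosome 9 place too, from 57350001 to 57450000. For chromosome 1 the lack of a broad domain depended on the settings. The site from 137000001 to 137120000, which had the most reads of that chromosome in B73, held 8 enriched bins in F3-600 (median 67.3 times, 57.0 times in B73), just short of the minimum. It became broad in F3-600 with bins of 50 kb, at 5 times the median, with merging over 1000 kb and with a minimum of 50 kb. In B73 the same site became broad with bins of 50 kb and with a minimum of 50 kb. With bins of 50 kb a site on chromosome 7, from 58500001 to 58850000, was broad in F3-600 as well. The chromosome 1 site with the most F3-600 reads lay at the very start, from 1 to 470000, with 4 enriched bins at a median of 507 times (119 times in B73) and a highest bin from 20001 to 30000 at 992 times. The sites of the other chromosomes held 2 or 3 enriched bins, from 157580001 to 157600000 on chromosome 2 (highest bin 39.5 times), from 56650001 to 56670000 on chromosome 7 (200 times, bin 56650001 to 56660000) and from 48850001 to 48880000 on chromosome 8 (219 times). In B73 these highest bins were at 90.3, 226 and 255 times.

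The 36 narrow F3-600 domains together held 87 enriched bins and 3.18% of the fragments (3.17% to 3.19%), not far below the broad ones. The 2 largest, both on chromosome 1 (1 to 470000 and 197000001 to 197020000), had 210793 reads, 1.46% of the library. Of the 36, 25 contained a bin enriched in B73, and 10 of the remaining 11 contained one enriched in F3-152. Their reads were 39.0% distinct and 58.3% had a mapping quality of at least 30, against 98.9% and 87.8% outside the domains. Narrow sites were thus mostly shared by the libraries and rich in repeated reads. The chromosome 6 domain had 92.1% distinct reads and 94.1% at that quality. The share of distinct reads falls as reads crowd into a bin, so it is not independent of the height used for calling.

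A single narrow F3-600 domain had no enriched bin in either other library. It lay on chromosome 3 from 25650001 to 25780000, with 5 enriched bins among 13. Over all 13 bins the level ranged from 2.0 to 13.3 times in F3-600 (median 8.09), from 0.188 to 1.63 times in B73 (0.781) and from 0.233 to 2.06 times in F3-152 (1.42). Of the 13 bins, 11 were at 5 times or more in F3-600. The fragments numbered 3705 and 218, a ratio of 9.27 (8.08 to 10.7). Its lowest F3-600 bin was below the highest F3-152 bin, and since the site was picked for having no enriched bin in the other libraries, its contrast to them is a description. The level was lower than in the domain from 79910001 to 80180000 on the same chromosome.

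Features other than the bin height used for calling differed among the 7 broad F3-600 domains. Shares of distinct reads and of windows without a read depend on the reads per bin, so neither is independent of that height. Median heights were 15.6 times in the first domain of chromosome 3 and 14.4 times on chromosome 6. They were 22.0, 19.5 and 22.9 times on chromosomes 4, 5 and 10. The second domain of chromosome 3 was at 16.8 times and that of chromosome 9 at 16.7 times. The domains were not compared at equal height. Of the reads in the first domain of chromosome 3 and in that of chromosome 6, 92.5% and 92.1% were distinct and 93.9% and 94.1% had a mapping quality of at least 30, and none of their enriched windows of 1 kb was without a read. In the domains of chromosomes 4, 5 and 10, which overlap those of B73, 84.9% to 87.9% of the reads were distinct and 3.58% to 8.31% of the windows had no read. The second domain of chromosome 3 stood apart from these, with 73.9% distinct reads, 73.7% at that mapping quality and 46.8% of its reads in the top 10% of its windows, and only the domain of chromosome 9 had lower shares of distinct and high-quality reads. Fragments under 150 bp made up 9.27% to 14.6% of the fragments in the 7 domains and 5.71% outside the domains, so short fragments were more frequent in each F3-600 domain. In the broad B73 domains they made up 13.9% to 15.8%, against 17.9% outside. The direction thus differed between the libraries, whose fragment lengths differed throughout.

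At the threshold, the lowest enriched F3-600 bins had 640, 643 and 643 reads, and the highest bins below it had 638, 636 and 633. At 20 times the median in place of 10, the first domain of chromosome 3 and the domain of chromosome 9 were no longer broad. At 5 times the median, sites on chromosome 3 (25640001 to 25780000) and chromosome 1 (137000001 to 137460000) became broad.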

How the data were processed

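Anti-CENH3 ChIP-seq of young leaves was read for B73, F3-600 and F3-152, 1 library each. Per the submitters' notes, CASAVA and BWA were used with B73 RefGen_v4. For B73, the study's methods describe paired-end 101-bp reads and a filter for unique mapping and mapping quality. The authors deposited 1 row per aligned read, with position, strand and mapping quality as a score from 20 to 60, unnormalized. Duplicate removal is not given in the sources used here.

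Reads were counted by midpoint in 10-kb bins and scaled to the median of non-empty bins. Fragments were counted once per read name. Clopper-Pearson and conditional binomial intervals (95%) were computed over fragments; duplicates were kept, so they are too narrow. Named sites were every broad domain, the domain with the most reads per chromosome, and its highest F3-600 bin; other sites were named after their values were seen. Rules and sites were chosen with earlier results of these data known. Alternatives tried were 50-kb bins, a threshold of 5 or 20 times, a merging distance of 100 or 1000 kb, only reads with mapping quality 30 or more, collapsed duplicates, fragments, thinning of F3-600 to the B73 depth and broad domains from 50 kb. Scaling to all reads and the split of bins by B73 enrichment were added after seeing the data. The calling code was tested on simulated data. A genome and annotation of this build were not used here, so genes and repeats in the domains were not analysed. Software was SciPy 1.17.1, pandas 2.3.3, NumPy 2.4.6 and Matplotlib 3.10.9 under Python 3.11.15.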

Additional observations from a re-analysis of the deposited data

How the results depend on the processing

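There were 70 alternative values for 7 summary results. Of these, 47 stayed within 1.5 times of the reported value or, for shares, within its counting interval, and 23 did not. These counts, lengths and shares have no direction that could reverse. The 14 ratios of F3-600 to B73 kept their direction except in the F3-600 domain of chromosome 9. The log2 ratio in the chromosome 6 domain ranged from 3.12 to 3.77, in the first chromosome 3 domain from 3.33 to 3.49, and in the B73 domains of chromosomes 2, 8 and 9 from -4.35 to -2.71. In the chromosome 9 domain of F3-600 it ranged from -0.02 with fragments to 0.41 with collapsed duplicates. The threshold and the minimum width moved the F3-600 domains most. At 20 times the median the enriched length was 1.48 Mb in F3-600 and 3.88 Mb in B73, and with broad domains from 50 kb F3-600 had 12 of them. Merging over 100 kb gave 11 broad B73 domains. The number of broad F3-600 domains ranged from 5 at 20 times to these 12, with 10 for bins of 50 kb. The number of broad B73 domains overlapped by one of F3-600 was 6 with bins of 50 kb, 5 with merging over 100 kb or a minimum of 50 kb, and 4 otherwise.

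The share of reads in broad domains, 3.91% in F3-600 and 6.91% in B73 as reads, was lower in F3-600 under every alternative run. In this order it was 4.27% and 7.40% with bins of 50 kb, 4.79% and 7.51% at 5 times, 1.95% and 5.24% at 20 times, 3.80% and 6.84% with merging over 100 kb, and 4.28% and 7.04% with merging over 1000 kb. It was 3.96% and 6.84% with reads of mapping quality 30 or more, 3.28% and 6.43% with collapsed duplicates, 3.87% and 6.82% with fragments, and 4.43% and 7.15% with broad domains from 50 kb. Thinning F3-600 to the B73 depth gave 3.92%. The cause of these shifts was not tested. No paired analysis was possible because each line has 1 library, and for the same reason no replicate could be left out.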

Other observations

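Reads outside chromosomes 1 to 10 fell on the chloroplast and mitochondrial sequences only. Scaled by length to the median bin, the chloroplast level was 6.74 times in F3-600 (6.48 to 7.003) and 6.19 times in B73 (5.85 to 6.54). The mitochondrial level was 1.43 times in F3-600 (1.37 to 1.48) and 2.61 times in B73 (2.51 to 2.71).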
